A study of Saccharomyces kudriavzevii and Saccharomyces cerevisiae and Kluyveromyces marxianus with 12 samples.

Results

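The mitochondrial ribosomal protein genes described here are the nuclear *S. cerevisiae* genes named MRPL (large subunit), MRPS and RSM (small subunit). They were taken by 54 systematic identifiers, 34 of the large and 20 of the small subunit, of the 6017 genes in the count tables. All 54 passed the filter on low counts and were tested. Poly(A) RNA was sequenced from the laboratory strain BY4742, in which HIS3, LEU2, LYS2 and URA3 are deleted in whole or in part in every library. Cells grown in rich glucose medium (YPD) at 33 °C were held for 8 minutes at 40 °C (heat shock, 2 biological replicates) or at 33 °C (control, 2 biological replicates). The labels and methods give this time for the sequenced samples, while the study's text also names a longer heat stress. The comparison asks how these transcripts differed between the temperatures, beside the 132 genes for cytosolic ribosomal proteins (RPL and RPS).

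Yeast mitochondria hold a ribosome of their own, of bacterial ancestry, which makes a handful of very hydrophobic proteins, mainly subunits of the respiratory chain and the ATP synthase. Its RNAs and the protein Var1 are encoded by mitochondrial DNA, and all its other proteins are encoded in the nucleus, made in the cytosol and imported. Many of them belong to families shared with bacteria, and the others are found only in mitochondria. In *S. cerevisiae*, messages of this kind are known targets of Puf3, an RNA-binding protein that recognizes a short element downstream of the stop codon and affects the decay, translation and location of its targets. Cytosolic ribosomal protein genes are known to be switched down together in stressed yeast.

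The labels were checked first. The heat shock genes SSA4, HSP104, HSP26 and HSP42 were higher in both heat shock libraries, by 4.33 to 7.05 on the log2 scale, and URA3, LEU2 and LYS2 had 0 counts in all 4 libraries. Heat shock replicates 1 and 2 had 22476146 and 18911098 counts on genes, and control replicates 1 and 2 had 19787368 and 23476002. Apart from MRPL51, each mitochondrial ribosomal protein gene had between 560 and 4439 counts per library, so the spread between the 2 replicates limited the precision more than counting did. VAR1 (Q0140) had 0 counts in every library. The 19 genes of the mitochondrial genome together had 19 and 12 counts in the heat shock libraries and 10 and 22 in the control libraries, so transcripts made inside the organelle were not measured by these poly(A) libraries.

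The only element searched for downstream of these genes was found beside nearly all of them. It is shown because it sets them apart from cytosolic ribosomal protein genes. The letters TGTANATA, the Puf3 element, were searched on the coding strand within 200 bases after the stop codon in the R64 sequence of *S. cerevisiae* from RefSeq. They were found beside 53 of 54 mitochondrial ribosomal protein genes (98.1%, 95% Wilson interval 90.2% to 99.7%). The share was 3.79% of the 132 cytosolic ribosomal protein genes and 14.5% of 5784 genes tested with an R64 position. The exception was RSM22 (YKL155C). In the lines below, the capitals mark the element, the position is that of the capitals, and the offset is the base after the stop codon at which the capitals begin. The first 8 lines belong to the 6 genes with the largest rises among the called genes, the next 5 to the 4 genes with the smallest fold changes, and the last 2 to MRPS16, which had the most negative fold change.
RSM19 (YNR037C), chrXIV:695035-695042, minus strand, offset 10: ggatctagTGTATATAgatttcta
RSM19 (YNR037C), chrXIV:695007-695014, minus strand, offset 38: atatatcaTGTAAATAagatcaag
RSM19 (YNR037C), chrXIV:694979-694986, minus strand, offset 66: actcgggcTGTATATAtatatata
RSM7 (YJR113C), chrX:638203-638210, minus strand, offset 22: aacttgccTGTACATAaacacatt
RSM18 (YER050C), chrV:253897-253904, minus strand, offset 67: gttctgtcTGTAAATAtacaatat
MRPS12 (YNR036C), chrXIV:694280-694287, minus strand, offset 74: caacctttTGTAAATAgcaatgac
MRPL27 (YBR282W), chrII:768709-768716, plus strand, offset 29: aatatgcgTGTAAATActagtttt
MRPL16 (YBL038W), chrII:146911-146918, plus strand, offset 26: tgtatacaTGTATATAactattga
MRPS5 (YBR251W), chrII:722321-722328, plus strand, offset 8: aatactaTGTACATAcacacgca
MRPS5 (YBR251W), chrII:722383-722390, plus strand, offset 70: ataataccTGTAAATAtctcaaca
MRPS35 (YGR165W), chrVII:830223-830230, plus strand, offset 70: ttattactTGTACATAaaatattc
MRPL32 (YCR003W), chrIII:119217-119224, plus strand, offset 46: cttaagccTGTATATAgaaactta
RSM25 (YIL093C), chrIX:187944-187951, minus strand, offset 39: aaccaaccTGTATATAattaaaaa
MRPS16 (YPL013C), chrXVI:528892-528899, minus strand, offset 86: gtatatgtTGTATATAtgttttac
MRPS16 (YPL013C), chrXVI:528851-528858, minus strand, offset 127: atcagactTGTAAATAatacatct

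The 53 genes held 66 such elements, with 1 element beside 41 genes, 2 beside 11 genes and 3 beside RSM19. They began between 8 and 165 bases after the stop codon, with a median of 56.5. At the variable base A was the most frequent, with TGTAAATA at 29 sites, TGTATATA at 20, TGTACATA at 16 and TGTAGATA at 1, beside MRPL3 (YMR024W). A cytosine stood 2 bases before the element, as in the MRPS35 and RSM25 lines above, at 65.2% of these sites. The same base was found at 70.8% of 24 sites beside the other mitoribosomal protein genes and at 24.0% of 817 sites beside genes outside both groups. Within 100 bases of the stop codon, 88.9% of the mitochondrial ribosomal protein genes held an element, against 10.5% of all genes. A match describes the sequence only, and binding was not measured.

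After heat shock the mitochondrial ribosomal protein transcripts were slightly higher or showed no called change, and none passed the test as lower. By the edgeR quasi-likelihood fit over 5786 genes, with p-values adjusted by Benjamini-Hochberg, 18 of 54 (33.3%) were higher at an adjusted p under 0.05. In this fit over all 4 libraries the share was close to the 33.7% of all genes tested that were called higher. By contrast, 0 of 54 were called lower (also 0 at an unadjusted p under 0.05, and 0 in DESeq2's Wald test), beside 32.7% of all genes tested. None of the 54 was called with a change of at least 2-fold, beside 11.7% of all genes called and at least 2-fold higher and 13.5% called and at least 2-fold lower. Counts are relative to the RNA sequenced, so that a change in the RNA of each cell and a change in the number of cells that hold it cannot be told apart. The samples are labelled as biological replicates, and with 2 per condition the p-values rest on the spread within these pairs.

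The count of 18 depended on the libraries used. It was 5 without heat shock replicate 1, beside 23.8% of all genes called higher in that fit, and 6 without heat shock replicate 2, beside 24.5%. It was 40 without control replicate 1, beside 33.8% of all genes, and 12 without control replicate 2, beside 31.8%. The remaining single library of a condition was assumed to vary like the other condition. The share of the 54 was thus above that of all genes without control replicate 1 and below it in the other 3 fits. The 5 genes called in all of these fits were RSM7, RSM18, MRPS12, MRPL27 and MRPL16. MRPL15 (YLR312W-A), MRPL20 (YKR085C), MRPL37 (YBR268W) and MRPS16 were named after their values were seen. Without control replicate 2 their log2 fold changes were -0.30, -0.38, -0.34 and -0.46. Without control replicate 1 they were 0.08, 0.04, 0.11 and -0.07, in the same order, so these falls depended on the control library.

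For the mitochondrial ribosomal protein genes the control libraries differed from each other more than the heat shock libraries did. In control replicate 1 all 54 mitochondrial ribosomal protein genes had a higher count per library size (CPM, after edgeR's TMM scaling) than in control replicate 2, with a median log2 difference of 0.28. Over all genes tested 50.7% were higher in control replicate 1, and the median difference was 0.00. For cytosolic ribosomal protein genes the median difference was 0.01 between the control libraries and 0.11 between heat shock replicates 1 and 2. Between heat shock replicates 1 and 2 the median difference of the mitochondrial ribosomal protein genes was 0.02, with 33 of 54 higher in replicate 1. Control replicate 2 was the lowest of the 4 libraries for 51 of 54 genes. The heat shock genes SSA4, HSP104, HSP26 and HSP42 were also all higher in control replicate 1 than in control replicate 2 (median log2 difference 0.44), and the part of this difference between the controls in the results was not tested.

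**Figure D1:**
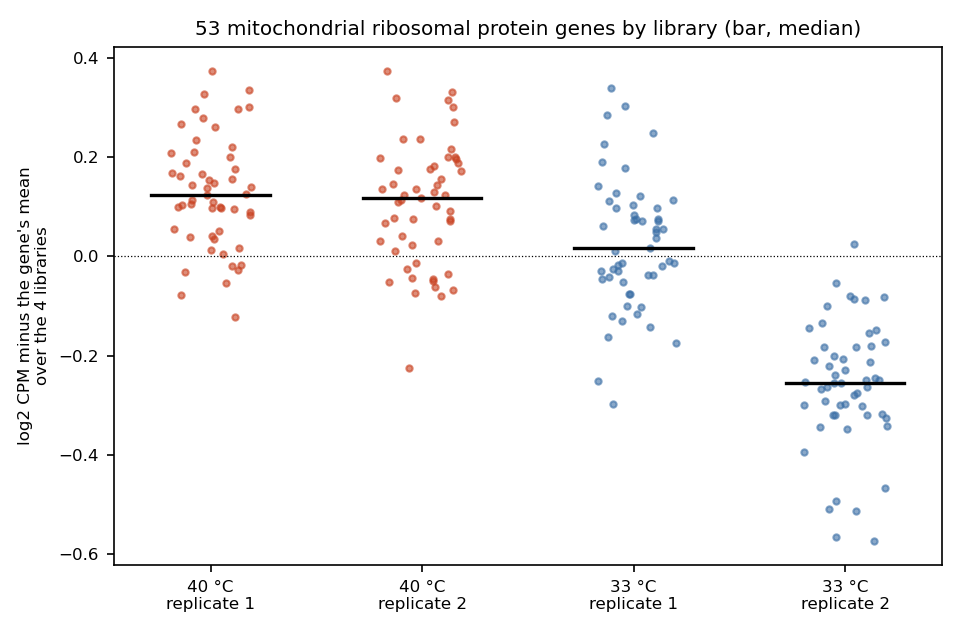
Each point is a mitochondrial ribosomal protein gene in a library, as log2 CPM minus that gene's mean over the 4 libraries (vertical axis, log2 units), with heat shock at 40 °C on the left and control at 33 °C on the right and a bar at the median of 53 genes. MRPL51, with at most 30 counts, is not drawn. The heat shock libraries lie at a like level, while control replicate 1 lies above control replicate 2.

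The median log2 fold change of the 54 genes was 0.24 (1.18-fold), with quartiles of 0.13 and 0.35, beside a median of 0.03 over all genes tested. Single pairs of libraries gave medians of 0.08 (heat shock replicate 1 over control replicate 1), 0.11 (heat shock replicate 2 over control replicate 1) and 0.40 (each heat shock replicate over control replicate 2), with an SD of 0.176 over these 4 pairs, which share libraries. The median was therefore little larger than the spread between the pairs. It was positive in every pair. Leaving out control replicate 1 gave 0.37 and leaving out control replicate 2 gave 0.12. The fold changes lay within a narrow range: 46 of 54 (85.2%) were within 0.5 of 0 on the log2 scale, against 49.2% of all genes tested. The 95% interval lay within a 2-fold change in either direction for 52 of 54 genes, against 60.5% of all genes. For all 54 genes the lower limit of the interval was above -1, so that a fall of 2-fold or more lay outside the interval of each. In CPM both heat shock libraries were above both control libraries for 32 of 54 genes, beside 44.1% of all genes tested, and below both for 1 gene, RSM26, beside 41.3% of all genes.

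**Figure D2:**
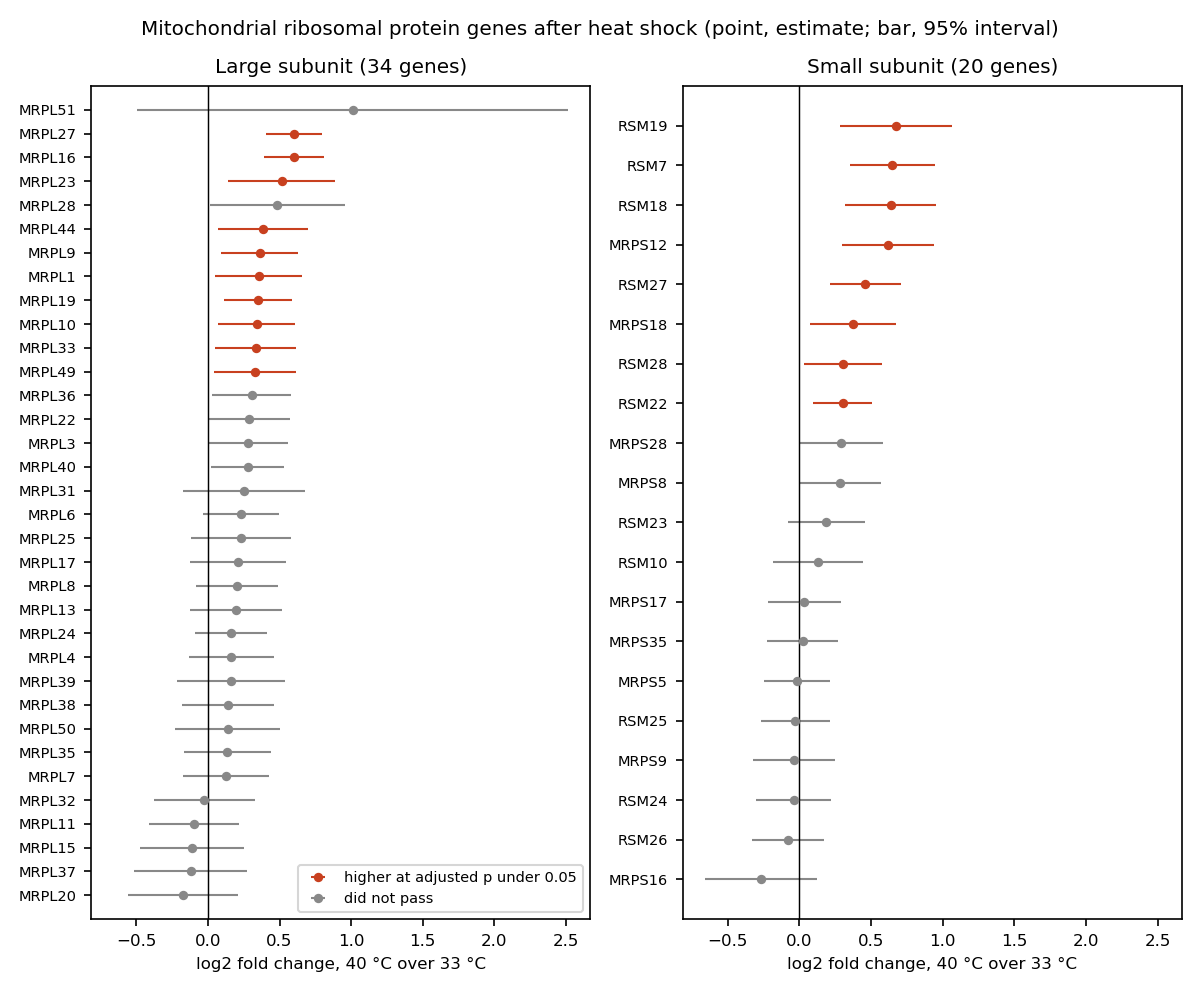
Log2 fold change of each mitochondrial ribosomal protein gene, 40 °C over 33 °C (horizontal axis), by subunit, with the edgeR estimate as a point and its 95% interval as a bar. The 18 genes called higher are coloured, 10 in the large and 8 in the small subunit, and apart from MRPL51 every estimate lies between -0.27 and 0.67.

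The 5 genes whose call held in every left-out fit code for 3 proteins of the small and 2 of the large subunit. RSM7 (YJR113C, chromosome X, 638232 to 638975) codes for uS7m, a protein of the small subunit head. It had 117 and 116 CPM in heat shock replicates 1 and 2, against 83.0 and 65.9 CPM in control replicates 1 and 2. This was a log2 fold change of 0.65 (SE 0.124, edgeR adjusted p = 0.00346). RSM18 (YER050C, chromosome V, 253971 to 254387), which codes for bS18m, had 70.9 and 76.3 CPM after heat shock, against 52.2 and 42.6 in control cells, a log2 fold change of 0.64 (SE 0.134, edgeR adjusted p = 0.00521). Neither gene overlapped between conditions, and for both the gap between the controls was wider than that between the heat shock libraries.
MRPS12 (YNR036C, chromosome XIV, 694361 to 694822) codes for uS12m, which in bacterial ribosomes lies at the decoding site. It had 193 and 197 CPM after heat shock, against 144 and 109.6 in control cells, a log2 fold change of 0.62 (SE 0.134, edgeR adjusted p = 0.00581). Leaving out each library in turn moved it between 0.44 and 0.80. MRPL27 (YBR282W, chromosome II, 768240 to 768680) codes for mL41, a protein with no bacterial counterpart. It was the most even of these genes, with 46.6 and 46.7 CPM after heat shock against 30.8 and 30.7 in control cells and a log2 fold change of 0.60 (SE 0.0818, edgeR adjusted p = 0.000678). MRPL16 (YBL038W, chromosome II, 146187 to 146885) codes for uL16m, which in bacteria lies close to the peptidyl transferase centre. It had 48.2 and 46.5 CPM after heat shock, against 32.3 and 30.2 in control cells, a log2 fold change of 0.60 (SE 0.0873, edgeR adjusted p = 0.000922). For MRPL27 and MRPL16 the control replicates were nearly level, so that these rises did not turn on which control library was used.

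The next 3 rises each lost their call when a heat shock library was left out. RSM19 (YNR037C, chromosome XIV, 695052 to 695327) codes for uS19m of the small subunit head and lies 229 bases from MRPS12 on the same strand, so that its downstream elements are in the stretch between the genes. It had 83.1 and 79.8 CPM after heat shock, against 59.1 and 43.0 in control cells. The change was the largest of the called genes, at 0.67 on the log2 scale (SE 0.163, edgeR adjusted p = 0.00954), and without heat shock replicate 1 the adjusted p was 0.0547. MRPL23 (YOR150W), for uL13m, had 118 and 113 CPM after heat shock, against 94.6 and 67.7 in control cells, a log2 fold change of 0.52 (SE 0.157, edgeR adjusted p = 0.0242). The adjusted p was 0.136 without heat shock replicate 1 and 0.0779 without heat shock replicate 2. RSM27 (YGR215W), for the mitochondrial-only protein mS33, had 58.4 and 55.9 CPM after heat shock, against 44.2 and 39.1 in control cells, a log2 fold change of 0.46 (SE 0.104, edgeR adjusted p = 0.00713). Its adjusted p was 0.0666 and 0.0623 without heat shock replicates 1 and 2. Conditions did not overlap for any of the 3 genes. The other 10 called genes, MRPL44, MRPS18, MRPL9, MRPL1, MRPL19, MRPL10, MRPL33, MRPL49, RSM28 and RSM22, had log2 fold changes between 0.30 and 0.38, with edgeR adjusted p between 0.0185 and 0.0493, and each lost its call without heat shock replicate 1 and without heat shock replicate 2.

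At the other end, the 4 smallest changes were those of MRPS5, MRPS35, MRPL32 and RSM25, and their intervals bound how much they could have moved. MRPS5 (YBR251W), for uS5m, had 43.7 and 40.1 CPM after heat shock, against 44.4 and 40.6 in control cells (log2 fold change -0.02, 95% interval -0.25 to 0.21). MRPS35 (YGR165W), for the mitochondrial-only protein mS45, had 51.2 and 53.4 CPM, against 53.9 and 49.1 in control cells (log2 fold change 0.02, interval -0.22 to 0.27). RSM25 (YIL093C), for mS23, had 43.0 and 41.2 CPM, against 45.9 and 40.0 in control cells (log2 fold change -0.03, interval -0.27 to 0.21). In these genes the conditions overlapped, and the sign of the change turned with the scaling or with the library left out. MRPL32 (YCR003W) codes for bL32m, which in yeast must be cut by the m-AAA protease before it enters the ribosome. It had 37.3 and 35.0 CPM after heat shock, against 42.4 and 31.3 in control cells, with a log2 fold change of -0.02 (interval -0.38 to 0.33).
The most negative fold change was that of MRPS16 (YPL013C), for bS16m, with 66.2 and 57.9 CPM after heat shock, against 85.6 and 63.9 in control cells. Its log2 fold change of -0.27 did not pass the test (SE 0.163, interval -0.66 to 0.12, edgeR adjusted p = 0.186). Leaving out control replicate 1 gave -0.07, and leaving out control replicate 2 gave -0.46, which was called (edgeR adjusted p = 0.00700). RSM26 (YJR101W), for mS42, a protein related to superoxide dismutases, was the only gene with both heat shock libraries, at 60.7 and 58.9 CPM, below both control libraries, at 63.9 and 62.6 CPM. The log2 fold change was -0.08 (interval -0.33 to 0.17). With library totals in place of TMM factors it stayed negative, at -0.05. In TPM, which divides counts by gene length before scaling each library to a fixed total, the order was turned round, and the reason was not tested. RSM26 had 65.5 and 62.7 TPM after heat shock, against 56.0 and 57.7 in control cells.

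Genes picked for the roles of their proteins spread over the same range. MRPL9 (YGR220C) codes for uL3m, which in bacteria reaches toward the peptidyl transferase centre, and had 75.5 and 79.2 CPM after heat shock, against 63.5 and 56.8 in control cells (log2 fold change 0.36, SE 0.113, edgeR adjusted p = 0.0264). MRPL19 (YNL185C) codes for uL11m, part of the stalk base where translation factors bind. It had 34.5 CPM in each heat shock library, against 29.0 and 25.3 in control cells (log2 fold change 0.35, SE 0.0998, edgeR adjusted p = 0.0191, and 0.0911 without control replicate 2). Its coding sequence shares 113 of 477 bases with the neighbouring frame YNL184C, so part of its reads could not be assigned. MRPL36 (YBR122C), for bL31m, had 104 and 103 CPM, against 92.1 and 75.6 in control cells, and stood just outside the threshold (log2 fold change 0.31, SE 0.116, edgeR adjusted p = 0.0529, and 0.00786 without control replicate 1).
RSM22 (YKL155C), related to methyltransferases, was the gene with no Puf3 element. It had 40.6 and 43.2 CPM after heat shock, against 34.4 and 33.5 in control cells (log2 fold change 0.30, SE 0.0859, edgeR adjusted p = 0.0185, and 0.226 without heat shock replicate 2). RSM23 (YGL129C) codes for mS29, a GTP-binding protein whose human counterpart is DAP3, and had 72.3 and 72.0 CPM, against 67.1 and 59.6 in control cells. Its log2 fold change of 0.19 did not pass (interval -0.08 to 0.46, edgeR adjusted p = 0.179, and 0.0385 without control replicate 1). For these 5 genes both heat shock libraries were above both control libraries, beside 44.1% of all genes tested. Of the other genes picked for roles, MRPS12 and RSM19 had the same order, MRPL32 overlapped and RSM26 had the reverse order.

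By subunit, 10 of 34 large (29.4%) and 8 of 20 small subunit genes (40%) were called higher, beside 33.7% of all genes tested. The medians were 0.24 for each (pair SD 0.185 for the large and 0.109 for the small subunit). Of the small subunit genes, 6 of 11 RSM genes (54.55%) and 2 of 9 MRPS genes (22.2%) were called, with medians of 0.30 and 0.03. The RSM median was between 0.19 and 0.35 over the library pairs and the MRPS median between -0.02 and 0.17. Of proteins in families shared with bacteria, 13 of 33 were called higher (39.4%, median 0.28), and of mitochondrial-only proteins 5 of 21 (23.8%, median 0.21). The 21 include RSM22, which was called and has no ribosomal protein family name, so its place in this group is uncertain. Over library pairs the SD was 0.155 for the shared families and 0.191 for the mitochondrial-only proteins. Both groups use the same pairs, so these SDs do not measure the difference between them. By pair, the shared families had the higher median, at 0.14 against 0.05, 0.42 against 0.38, 0.16 against 0.04 and 0.42 against 0.37. No difference between any of these groups was tested.

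For levels between genes, the authors' TPM values are used, which divide by gene length. The mitochondrial ribosomal protein genes had a median of 85.4 and 82.9 TPM in the heat shock libraries, against 61.4 and 52.4 TPM in the control libraries. Over all genes the medians were 32.5 and 31.5 TPM after heat shock, against 27.2 and 28.7 TPM in control cells. TPM gave higher values after heat shock than edgeR's scaling did: the median log2 ratio of mean TPM was 0.26 over all genes and 0.49 over the 54, where edgeR gave 0.03 and 0.24. On this scale both heat shock libraries were above both control libraries for 49 of 54 genes, beside 56.8% of all genes tested. In control cells the highest large subunit levels were those of MRPL39 (YML009C), for bL33m, and MRPL44 (YMR225C), for mL53. MRPL39 had 329 and 319 TPM after heat shock, against 275 and 210.3 TPM in control cells, and in CPM, at 81.1 and 79.8 against 83.4 and 60.6, its conditions overlapped (log2 fold change 0.16, interval -0.22 to 0.54). MRPL44, the only member of the 54 with an intron, had 214 and 208 TPM, against 146 and 125 TPM in control cells (log2 fold change 0.38, SE 0.132, edgeR adjusted p = 0.0380, and 0.0522 with TMM factors taken without cytosolic ribosomal protein genes).

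In the small subunit, MRPS12 with 360.4 and 363 TPM after heat shock, against 219 and 175 TPM in control cells, and MRPS16 with 156 and 135 TPM, against 164 and 129 TPM, had the highest control levels. The lowest were those of RSM22, with 18.6 and 19.5 TPM after heat shock, against 12.8 and 13.1 TPM in control cells, and MRPS5, with 40.9 and 37.0 TPM, against 33.7 and 32.5 TPM. In the large subunit the lowest were MRPL51 and MRPL16, the second with 59.7 and 56.7 TPM after heat shock, against 32.5 and 32.0 TPM in control cells. MRPL51 (YPR100W, for mL43, chromosome XVI, 729791 to 730213) had only 13 and 30 counts after heat shock, against 14 and 8 in control cells. Of its 423 coding bases, 323 overlap the frame YPR099C on the opposite strand, and the counting, which did not use strand, drops reads that lie on both, so its level is not comparable with the others. Its log2 fold change of 1.01 is the largest of the 54, and its interval of -0.49 to 2.51 is the widest. Without MRPL51, log2 mean TPM after heat shock and in control cells had a Pearson correlation of 0.963 across 53 genes, which are not independent replicates and share libraries and lengths. The order of levels among these genes was thus largely kept.

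**Figure D3:**
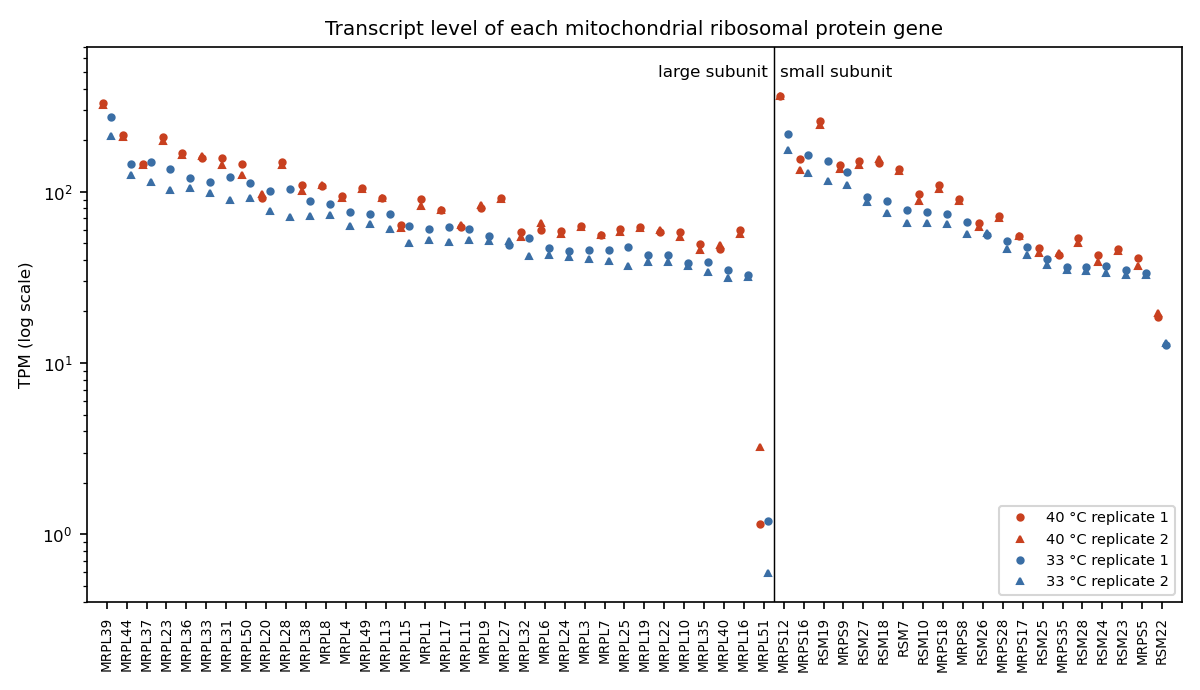
TPM of each mitochondrial ribosomal protein gene on a log scale (vertical axis), with heat shock libraries at 40 °C in red on the left of each gene and control libraries at 33 °C in blue on the right, ordered by control level within each subunit. Apart from MRPL51, values lie between 363 TPM (MRPS12, heat shock) and 12.8 TPM (RSM22, control).

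The cytosolic ribosomal protein genes moved far from this pattern. Of 132 RPL and RPS genes, 131 were lower after heat shock and 1, RPL15B, was higher. Their median log2 fold change was -2.72 (between -2.79 and -2.67 over the library pairs, SD 0.0563), so that the medians of both kinds of ribosome were 2.96 apart on the log2 scale. Leaving out each library in turn kept this distance between 2.85 and 3.09. Apart from RPL15B, the interval of every cytosolic gene ended below -0.27, the most negative estimate among the mitochondrial genes. The smallest falls were those of RPS9A (log2 fold change -0.53, interval -0.76 to -0.31) and RPS14B (-0.61, interval -0.94 to -0.28). Both intervals overlapped that of the mitochondrial gene MRPS16, which reached down to -0.66. RPL15B (YMR121C) had 128 and 131 CPM after heat shock, against 68.2 and 63.3 in control cells, a log2 fold change of 0.98 (SE 0.0897, edgeR adjusted p = 0.000102). RPS9A, RPS14B and RPL15B were named after their values were seen, and many cytosolic genes have a near-identical copy, so single values are uncertain.

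**Figure D4:**
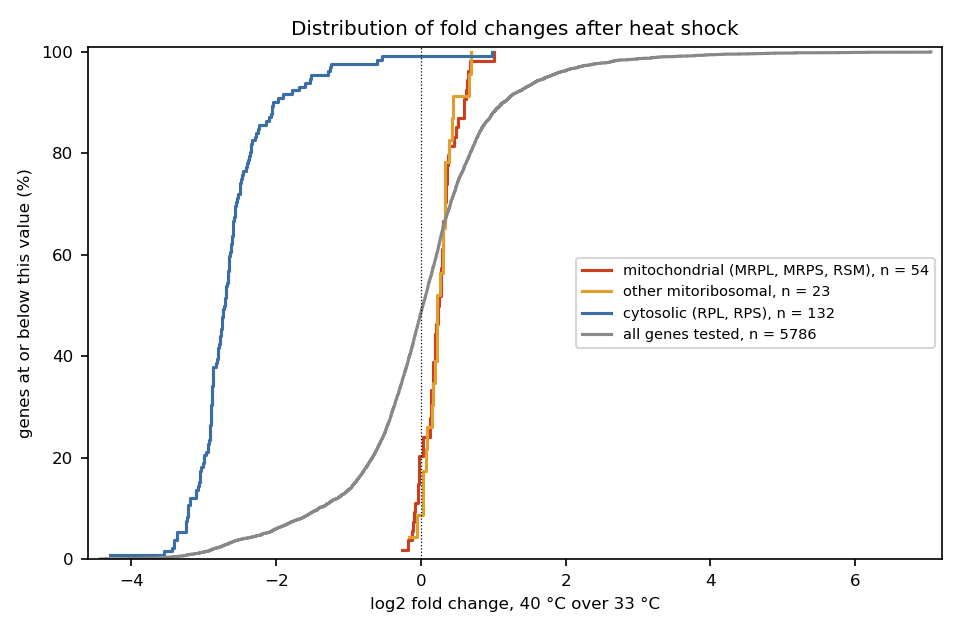
Cumulative share of genes (vertical axis, percent) by log2 fold change, 40 °C over 33 °C (horizontal axis), for 54 MRPL, MRPS and RSM genes, 23 other mitoribosomal protein genes, 132 RPL and RPS genes and 5786 genes tested. Both mitoribosomal curves rise steeply just above 0, and the cytosolic curve lies around -2.72.

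As a share of all counts on genes, the 54 mitochondrial genes took 0.375% and 0.358% after heat shock, against 0.331% and 0.277% in control cells. The difference of 0.0627 percentage points had an exact two-sided permutation p of 0.333, the smallest that 2 against 2 libraries can give. The cytosolic genes took 3.74% and 3.40% after heat shock, against 23.0% and 23.4% in control cells, with the same p of 0.333. Summed over genes, the cytosolic set had 14.0 and 13.7 times the TPM of the mitochondrial set after heat shock, against 90.7 and 112.7 times in control cells. Reads on several places were dropped, 3.30% and 3.27% after heat shock and 3.90% and 4.04% in control cells. Many cytosolic genes have a near-identical copy, so the shares and sums of the cytosolic set may be too low. The ratio of large to small subunit TPM within the mitochondrial set was 1.61 and 1.62 after heat shock, against 1.73 and 1.67 in control cells. The balance between the subunits thus moved little beside the balance between the ribosomes.

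The sets also differ in gene structure and promoters. An intron interrupts 1 of 54 mitochondrial genes (1.85%), 66.7% of the cytosolic genes and 5.13% of all genes tested. The mitochondrial genes lie on 14 chromosomes with at most 9 on any, and their coding sequences have a median of 706.5 bases (213 to 1887). In the 300 bases before the start codon, on both strands, the rapid growth element core AATTTT was found in 35.2% of the mitochondrial genes (interval 23.8% to 48.5%), 56.8% of the cytosolic genes and 55.0% of all genes. The PAC core GATGAG, which often accompanies it at ribosome biogenesis genes, was found in 18.5%, 11.4% and 18.7%, in the same order. The stress response element AGGGG, the site of Msn2 and Msn4, was found in 11.1% of the mitochondrial genes, 16.7% of the cytosolic genes and 22.5% of all genes. None of these promoter motifs was as frequent among the mitochondrial genes as the Puf3 element downstream of them. The end of GATGAG can be the start of AGGGG, and each motif was counted on its own. A missing match says only that these letters are not in the window.

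**Figure D5:**
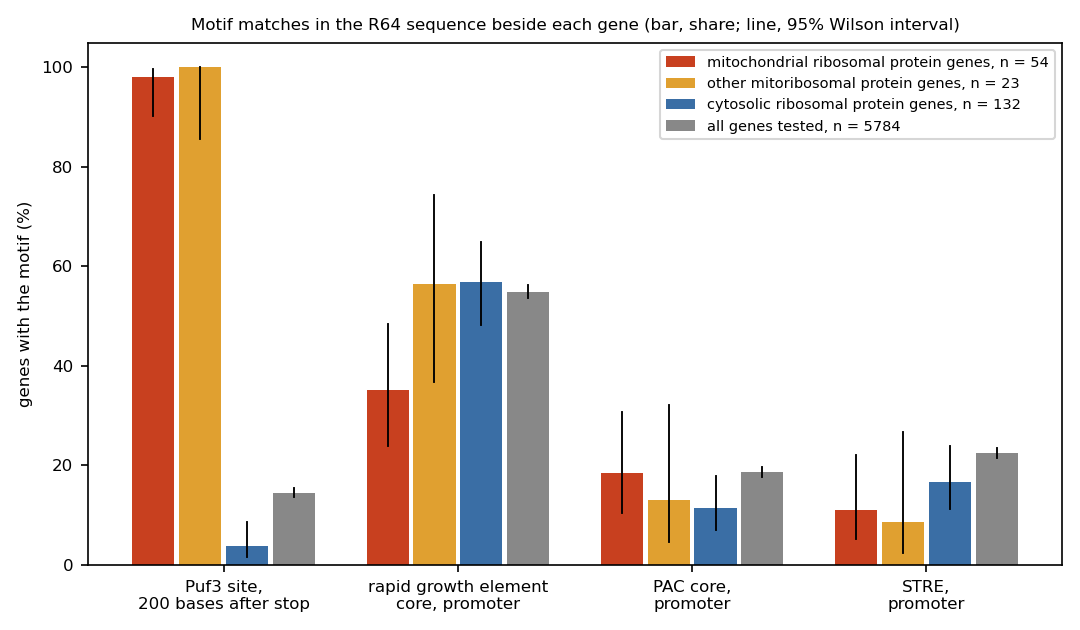
Share of genes (vertical axis, percent) whose R64 sequence holds each motif, for 54 mitochondrial ribosomal protein genes, 23 other mitoribosomal protein genes, 132 cytosolic ribosomal protein genes and 5784 genes tested, with 95% Wilson intervals as lines. The Puf3 element reaches 98.1% of the mitochondrial genes and 3.79% of the cytosolic genes.

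Other genes of mitochondrial translation moved in the same range or somewhat further. In the fit over all 4 libraries, 33.7% of all genes tested were called higher and 32.7% lower. The called counts of this and the following lists are to be read beside these shares. Of 23 mitoribosomal protein genes with other names (MRP, IMG and the like), 9 were higher (39.1%) and 0 lower, with a median of 0.23. Without heat shock replicate 1 or 2 only 2 were called higher, and without control replicate 1 there were 17. All 23 held the Puf3 element, and all 23 were higher in control replicate 1 than in control replicate 2. The largest called rise was that of MRP49 (YKL167C), a large subunit protein, with 66.6 and 70.0 CPM after heat shock, against 47.9 and 36.4 in control cells (log2 fold change 0.70, SE 0.150, edgeR adjusted p = 0.00567). MRP10, a small subunit protein, rose by 0.66 on the log2 scale (SE 0.136, edgeR adjusted p = 0.00468). Of 9 translation factor genes, 7 were higher (median 0.48), and 2 without heat shock replicate 1. MEF2 (YJL102W), which codes for a factor of ribosome recycling, had 35.5 and 40.9 CPM after heat shock, against 12.5 and 15.4 in control cells, and passed 2-fold (log2 fold change 1.45, SE 0.135, edgeR adjusted p = 0.000107). AIM23, the yeast mitochondrial initiation factor IF3, rose by 0.74 (SE 0.135, edgeR adjusted p = 0.00272).

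Of 8 ribosome assembly genes, 3 were higher and 1, GEP3, was lower, but leaving out either heat shock library left only AFG3 called, and no left-out fit called GEP3. AFG3 (YER017C) and YTA12 (YMR089C) code for the subunits of the m-AAA protease that cuts bL32m. AFG3 had 112.5 and 117.6 CPM after heat shock, against 74.7 and 75.7 in control cells (log2 fold change 0.61, SE 0.0867, edgeR adjusted p = 0.000804), and YTA12 rose by 0.33 (SE 0.0849, edgeR adjusted p = 0.0124). The adjusted p of YTA12 was 0.0781 without heat shock replicate 1 and 0.183 without heat shock replicate 2. Of 16 translational activator genes, 9 were higher and 0 lower, and 5 were higher without heat shock replicate 2 and 1 lower without control replicate 1. The largest rises were those of AEP3, which acts on the ATP synthase message ATP6/8 (log2 fold change 0.90, SE 0.111, edgeR adjusted p = 0.000432), and MSS51, the activator of COX1 translation, with 183 and 189.5 CPM after heat shock, against 110.4 and 103 in control cells (log2 fold change 0.80, edgeR adjusted p = 0.000196). Of 3 mitochondrial transcription genes, RPO41, the RNA polymerase of the organelle, was higher (log2 fold change 0.62, SE 0.103, edgeR adjusted p = 0.00171).

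Among 10 regulator genes, 3 were higher and 3 lower, against 2 and 1 without heat shock replicate 1, 2 and 2 without heat shock replicate 2, and 5 and 4 without control replicate 2. IFH1, a coactivator of cytosolic ribosomal protein genes, had 45.5 and 45.7 CPM after heat shock, against 80.1 and 92.7 in control cells, and fell by 0.92 on the log2 scale (SE 0.120, edgeR adjusted p = 0.000528). FHL1 and RAP1, which bind at the same genes, were the other lower ones, at -0.49 and -0.55, and without heat shock replicate 1 neither was called (edgeR adjusted p = 0.0693 and 0.0652). The subunits of the activator of respiratory genes differed. HAP2 was higher (log2 fold change 0.72, SE 0.106, edgeR adjusted p = 0.000966), as was HAP5 (0.68, SE 0.124, edgeR adjusted p = 0.0026). HAP3 had a negative change that did not pass (-0.31, interval -0.61 to -0.002, edgeR adjusted p = 0.0703). HAP3 and HAP5 were named after their values were seen. HAP4, the regulated subunit of that complex, did not pass (0.19, interval -0.06 to 0.43). Leaving out control replicate 1 gave 0.09, and leaving out control replicate 2 gave 0.27, which was called (edgeR adjusted p = 0.0256). PUF3 (YLL013C) had 47.6 and 54.3 CPM after heat shock, against 50.1 and 51.1 in control cells. Its log2 fold change of 0.01 (interval -0.25 to 0.26) turned sign with the scaling. The 761 tested genes outside both mitoribosomal groups that hold the Puf3 element had a median of 0.13, with 37.8% called higher and 28.7% lower, beside a median of 0.00 and shares of 33.0% and 33.9% for 4946 genes without it. The median of the mitochondrial ribosomal protein genes was above both, and neither group was tested against the other.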

How the data were processed

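The authors trimmed reads with Trim Galore 0.6.10, aligned them with STAR 2.7.10b to R64 and used HTSeq 2.0.2 to count the reads of each coding sequence without strand, so that reads on several places or on overlapping genes were dropped. These counts were deposited as whole numbers without normalization. The authors' TPM, computed from the counts and gene lengths, were deposited for all 12 libraries stacked in a single column, read here as a score. It leaves out 47 genes of the count tables. Reads given to no gene (between 5.91% and 6.60%) were left out of library sizes. Libraries of other species were not used here.

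Counts were fitted in R 4.3.3 with edgeR 4.0.16 (TMM, filterByExpr, glmQLFit and glmQLFTest, no covariates) over 5786 genes of 6017 in the 4 libraries, with Benjamini-Hochberg adjustment and a threshold of 0.05. DESeq2 1.42.0, other scalings and filters, a replicate block, log2 ratios of mean TPM with a pseudocount of 1 or 0.1, and leaving out each library were alternatives. Intervals are 95% intervals. The error of a list median is the SD over the 4 pairs of a heat shock and a control library. Named genes were the 8 largest called rises and falls without overlap, the 2 highest and 2 lowest TPM levels per subunit, the 4 smallest changes, 9 genes picked for roles, and in each other list the 2 largest called changes, PUF3 and HAP4. The members, lists and rules were chosen with earlier results of these data known. The fits were tested on simulated data. Other steps used pandas 2.3.3, matplotlib 3.10.9 and SciPy 1.17.1 under Python 3.11.15.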

Additional observations from a re-analysis of the deposited data

How the results depend on the processing

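The distance of 2.96 between the medians of mitochondrial and cytosolic ribosomal protein genes stayed between 2.85 and 3.09 over the alternatives run, and the number of called rises changed more. It was 18, against 7 at an adjusted p under 0.01, 14 with DESeq2 (13 of them shared; 29.3% of all genes higher), 13 with TMM factors taken without cytosolic ribosomal protein genes (31.5%), 22 with library totals (34.8%), and between 5 and 40 with a library left out (23.8% to 33.8%). The number of called falls was between 0 and 4 with a library left out. With the replicate number as a block, 29 genes were higher (all 18 among them), beside 38.2% of all genes, and 1 was lower, MRPS16. Deviations of same-numbered libraries correlated at 0.567 over 5786 genes, but with only 2 pairs and no shared source in the labels the numbers were not taken to pair the samples. With log2 ratios of mean TPM the median was 0.49 (pseudocount 1) and 0.50 (pseudocount 0.1) for the mitochondrial genes and -2.46 with either for the cytosolic genes. The Puf3 share was 88.9% within 100 bases.

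Signs turned for values near 0. The median over all genes was -0.0016 with DESeq2 and -0.0087 with TMM factors without cytosolic ribosomal protein genes. MRPS35 had -0.0052 with DESeq2, -0.0033 with its size factors and -0.013 with those TMM factors, and PUF3 had -0.020, -0.017 and -0.027. With library totals, MRPS5 had 0.011, MRPL32 0.0079 and RSM25 0.0018. With a library left out, the ranges were -0.0841 to 0.0192 for MRPS5, -0.0443 to 0.0650 for MRPS35, -0.231 to 0.183 for MRPL32, -0.127 to 0.0472 for RSM25 and -0.0530 to 0.382 for MRPL39. For PUF3 they were -0.113 to 0.103. The causes were not tested.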
